A study of Mus musculus with 8 samples.

Results

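The genes described here are 10 genes of ER-associated degradation, chosen by name from the 24421 genes counted in each of 8 samples: Sel1l, Syvn1, Herpud1, Derl1, Derl2, Derl3, Edem1, Edem2, Os9 and Dnajb9. The samples were pancreatic islets of male C57BL/6J mice aged 8 weeks. The 4 PPTx samples came from mice whose pancreas was resected by about 50% on the splenic side (partial pancreatectomy, PPTx) 2 days before the islets were isolated, and the 4 control samples came from mice of the same age that had no operation. There was no sham operation, each sample pooled the islets of 1 to 3 mice, and islets after PPTx came only from the remaining pancreas, so that the operation and the region of the pancreas cannot be told apart. Islets were dispersed with trypsin, and the transcripts of single cells were counted by unique molecular identifiers (UMIs) from their 3′ ends.

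The files held 1240 cells, of which 1232 were kept, with 227439 to 1580152 UMIs and a median of 3328 to 8677 UMIs per cell in each sample. Cells were put into classes by the hormone that made up at least 66.7% of their hormone UMIs. No doublets were called. This gave 952 insulin-led cells (375 control and 577 PPTx), 113 Gcg-led, 129 Ppy-led and 12 Sst-led cells, and 26 cells with mixed hormones that were left out. Beyond the hormones, insulin-led cells held Ucn3 at 531, Slc2a2 at 219 and Nkx6-1 at 129 UMIs per 1000000 UMIs of the summed cells (CPM), whereas the beta-cell factors Pdx1 (6.59 CPM) and Mafa (0.314 CPM) were close to 0. Gcg-led cells held Irx2 at 193 CPM, and Sst-led cells held Hhex at 230 CPM. Ins1 and Ins2 UMIs were also seen in Gcg-led and Ppy-led cells, at 1.08% to 1.72% of their level in the insulin-led cells of the same samples, and their source was not tested. Ghrl reached 5797 CPM in the insulin-led cells of 1 PPTx sample.

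ER-associated degradation removes proteins that fail to fold in the endoplasmic reticulum. Lectins and mannosidases mark them, a membrane complex built around the ubiquitin ligase Hrd1 and its adaptor SEL1L carries them back to the cytosol, and the proteasome degrades them there. Beta cells fold large amounts of proinsulin, and in many cell types several of these genes are targets of the unfolded protein response, the transcription program set off by misfolded proteins through ATF6, IRE1 with XBP1, and PERK with ATF4.

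The promoters of 3 members held a full match to a known ER stress element, and these are shown because the genes that share the elements are counted beside the PPTx comparison. RefSeq promoters (GRCm38.p6) were found for 9 of the 10 members, Derl2 with a pair of them. Each was searched over 300 bases, from 250 before to 50 after the start, and a match had to hold every letter given. The element ERSE, searched on both strands as CCAAT, 9 bases of any kind and CCACG, was found in Derl3 and Syvn1, and in 39 of all 32851 promoters (0.119%). The element ERSE-II, searched on both strands as ATTGG, 1 base of any kind and CCACG, was found in Herpud1 and in 12 of all promoters (0.0365%). The ATTGG that opens ERSE-II is the other strand of the CCAAT that opens ERSE, but no member held a full match to both, and near matches were not counted. The element UPRE, searched on both strands as TGACGTGG, was found in 222 promoters (0.676%) and in 0 of the members. The 250 bases upstream of each start are printed on the gene's strand, with the matched element in capitals.
Derl3, chr10:75893148-75893397 (+): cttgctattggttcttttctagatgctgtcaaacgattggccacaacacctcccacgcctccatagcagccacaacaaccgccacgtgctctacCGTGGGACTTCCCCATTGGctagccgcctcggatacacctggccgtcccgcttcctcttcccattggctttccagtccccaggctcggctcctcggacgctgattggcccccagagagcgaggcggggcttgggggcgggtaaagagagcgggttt
Syvn1, chr19:6046326-6046575 (+): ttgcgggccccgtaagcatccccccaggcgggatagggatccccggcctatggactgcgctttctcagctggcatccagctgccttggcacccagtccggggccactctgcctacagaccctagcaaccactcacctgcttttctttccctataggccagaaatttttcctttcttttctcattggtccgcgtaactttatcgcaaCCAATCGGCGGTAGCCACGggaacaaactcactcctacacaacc
Herpud1, chr8:94386179-94386428 (+): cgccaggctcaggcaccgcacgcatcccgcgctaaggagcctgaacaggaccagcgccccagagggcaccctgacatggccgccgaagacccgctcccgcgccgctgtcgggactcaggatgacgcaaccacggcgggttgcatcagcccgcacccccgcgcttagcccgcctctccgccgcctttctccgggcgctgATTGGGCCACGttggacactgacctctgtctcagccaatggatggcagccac
The ERSE of Derl3 lay 156 to 138 bases before the start and read on the opposite strand, that of Syvn1 lay 44 to 26 bases before the start on the gene's strand, and the ERSE-II of Herpud1 lay 52 to 42 bases before it. A match of letters is not evidence of binding, and its absence from the other promoters covers these windows only.

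All 10 members are protein-coding genes in the annotation. In GRCm38.p6 the gene of Syvn1 (chromosome 19, 6046576 to 6053718) overlaps Mrpl49 and Mir6988, Derl2 (chromosome 11, 71007440 to 71019841) overlaps Mis12, Edem1 (chromosome 6, 108824045 to 108859356) overlaps Gm35417, and Os9 (chromosome 10, 127094259 to 127121160) overlaps Gm40799. Reads of such neighbours could be split between them by the authors' counting, which makes these 4 genes less certain than Sel1l, Herpud1, Derl1, Derl3, Edem2 and Dnajb9, for which no overlap was listed.

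The first comparison asked whether members differed in insulin-led cells 2 days after PPTx. In these cells 9 of the 10 members had a positive log2 fold change and the median over members was 0.41, compared with −0.01 over all 5904 genes tested, but 0 of the 10 passed the test across all genes (edgeR quasi-likelihood test, Benjamini-Hochberg adjusted p under 0.05), and 0 passed with DESeq2. That test called 17 genes, 0.288% of those tested, and 10 of them higher (0.169%). At an unadjusted p under 0.05 it counted 5 members, all higher, where 9.42% of all genes were counted in either direction and 5.05% higher. Levels below are CPM of the summed insulin-led cells of each sample, in the order of replicates 1 to 4, and have no order in time.

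Derl3, a derlin of the channel that moves substrates out of the ER and one of the ERSE promoters printed above, showed the steepest member estimate. It stood at 30.6, 10.6, 22.0 and 17.2 CPM in the control samples and at 36.6, 50.7, 34.3 and 44.2 CPM in the PPTx samples. Every PPTx sample lay above every control sample, although these levels rest on only 5 to 28 UMIs per control sample and 24 to 64 per PPTx sample. The group means were 20.1 ± 8.41 and 41.4 ± 7.49 CPM (SD, n = 4 each). The log2 fold change was 0.98 (SE 0.27, edgeR unadjusted p = 0.00127, adjusted p = 0.155). Under the 17 alternatives that could test it, the adjusted p was between 0.0501 and 0.441. Of its paralogues, Derl1 had a log2 fold change of 0.20 (SE 0.18) and Derl2 one of 0.09 (SE 0.19), and the control and PPTx samples of both overlapped.

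Dnajb9 (ERdj4), a J-domain co-chaperone of BiP that delivers substrates to the degradation machinery, was read from 1776 UMIs in insulin-led cells. Its control samples held 153, 138, 236 and 232 CPM, and its PPTx samples 288, 425, 272 and 282 CPM. The groups did not overlap, and PPTx replicate 2 stood well above the other PPTx samples. The means were 190 ± 51.6 and 316 ± 72.4 CPM (SD, n = 4 each), with a log2 fold change of 0.57 (SE 0.19, edgeR unadjusted p = 0.00519, adjusted p = 0.257).

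The lectins and mannosidase-like proteins that read the glycans of misfolded proteins came next. Edem1 was at 40.8, 59.3, 54.3 and 58.6 CPM in control samples and at 80.7, 96.6, 71.6 and 79.1 CPM after PPTx. Edem2, which starts the trimming of mannose, was at 112, 86.8, 89.7 and 115 CPM in control samples and at 153, 167, 159 and 132 CPM after PPTx. Neither gene had overlapping groups, and in both the lowest PPTx sample lay clear of the highest control sample. Their log2 fold changes were 0.45 (SE 0.19, edgeR adjusted p = 0.457) and 0.50 (SE 0.16, adjusted p = 0.257). Os9, a lectin that hands glycoproteins to SEL1L, was at 133, 144, 133 and 158 CPM in control samples and at 196, 173, 187 and 190 CPM after PPTx. These groups did not overlap either, but the log2 fold change was small (0.28, SE 0.16, edgeR adjusted p = 0.617), and with the hormone genes left out of the totals the Os9 groups overlapped.

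The 3 members of the membrane complex, Syvn1, Sel1l and Herpud1, were not called, and their changes were not tested against each other. Syvn1 encodes Hrd1, the ubiquitin ligase, and was at 35.7, 25.4, 32.3 and 33.3 CPM in control samples and 56.8, 69.7, 47.7 and 35.0 CPM in PPTx samples. PPTx replicate 4 fell within the control range and the other 3 PPTx samples lay above it. Its log2 fold change was 0.63 (SE 0.22, edgeR unadjusted p = 0.00951, adjusted p = 0.332). Sel1l, the adaptor that stabilises Hrd1, was at 81.5, 91.1, 104 and 113 CPM in control samples and 75.7, 130, 101 and 99.3 CPM in PPTx samples, and the groups overlapped. Its CPM means were 97.3 in control and 101 in PPTx samples. The log2 fold change, on the scale of edgeR's TMM normalisation, was −0.10 with a 95% interval of −0.48 to 0.28. Without TMM the log2 fold change was 0.042, and these samples do not settle a difference within that interval. Herpud1, which organises the complex and is itself short-lived, was at 189, 146, 104 and 76.9 CPM in control samples and 110, 235, 156 and 169 CPM after PPTx. Its groups overlapped and its log2 fold change was 0.37 (SE 0.22, edgeR adjusted p = 0.622).

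**Figure D1:**
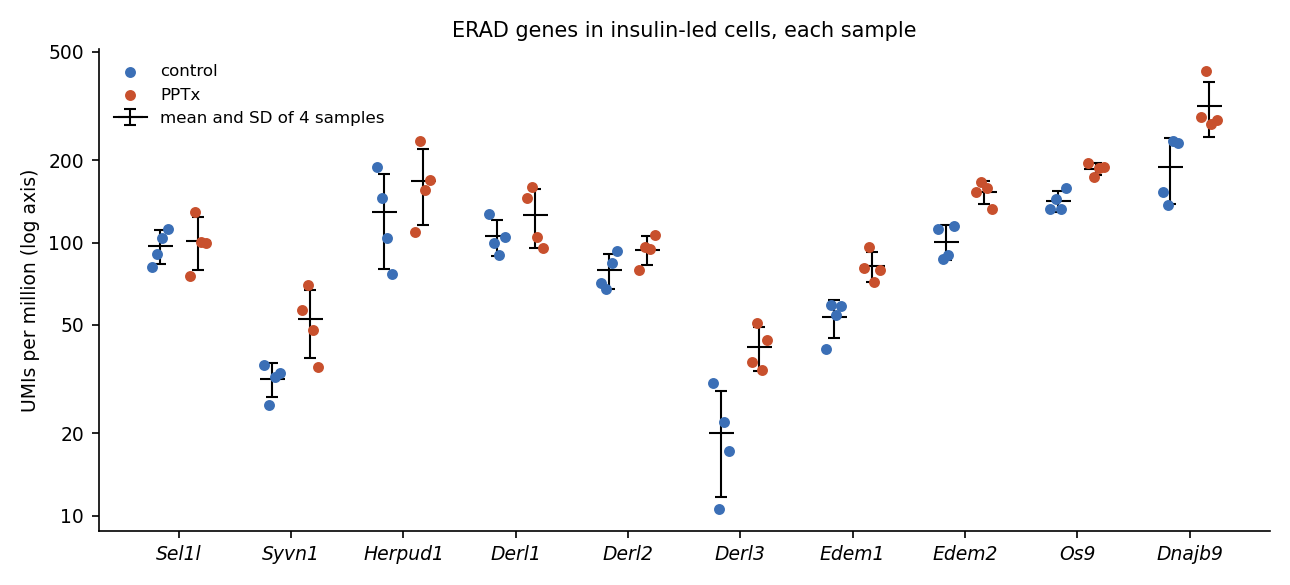
Level of each of the 10 members in insulin-led cells, in CPM on a log axis, for the 4 control and the 4 PPTx samples. Points are samples and bars are group means with SD. For Derl3, Edem1, Edem2, Os9 and Dnajb9 all PPTx samples lie above all control samples, and for Sel1l, Herpud1, Derl1, Derl2 and Syvn1 they overlap.

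In CPM, 5 members (Derl3, Edem1, Edem2, Os9 and Dnajb9) therefore had every PPTx sample above every control sample, against 4.88% of all genes tested and 1.07% in the other direction. When hormone UMIs were left out of the totals, 5 members did so again (Syvn1 in place of Os9), against 2.66% of genes above and 3.20% below. The summed level of the 10 members was 868 to 1002 CPM in control samples. It was 1220, 1227 and 1233 CPM in PPTx replicates 1, 3 and 4 and 1603 CPM in PPTx replicate 2, which stood apart and also had the lowest share of hormone UMIs (57.4%). These sums are given as a description.

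**Figure D2:**
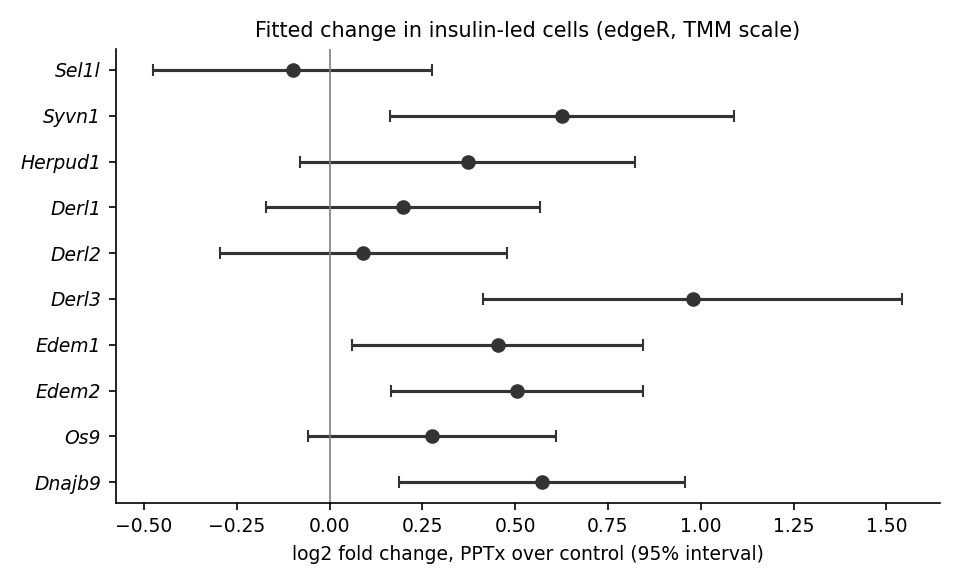
Log2 fold change of PPTx over control in insulin-led cells for the 10 members, with its 95% interval. The vertical line marks no change, and estimates run from −0.10 for Sel1l to 0.98 for Derl3, with 0 members past the adjusted threshold.

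Several other measures of the same cells are given here by group, without a test. Only the list of Ppy-cell markers had ranges that did not overlap. The list of Ppy-cell markers summed to 387 to 1849 CPM in the insulin-led cells of control samples and to 2226 to 4066 CPM in those of PPTx samples, with 7 of 7 markers detected in both. The immune list reached 15.3 to 96.8 CPM in control samples and 22.8 to 291 CPM after PPTx, with Ptprc and Lyz2 at 0 in control samples. The stellate list reached 0 to 90.7 CPM against 1.04 to 263 CPM (7 and 8 of 8 detected, Pdgfra at 0 in control samples), and the acinar list 6.35 to 45.9 CPM against 9.34 to 167 CPM (7 and 9 of 10 detected, Amy2a5 at 0 in both). Hormones took 63.6% to 67.2% of the UMIs in control samples and 57.4% to 65.4% in PPTx samples. The endothelial list stayed at 2.36 to 15.3 CPM in all samples, with Pecam1, Cdh5 and Flt1 at 0. Among cells in which insulin made up at least 90% of the hormone UMIs, the median log2 fold change of the members was 0.42 and 0 were called. The part of the other measures in the member levels was not tested.

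To compare cells at a single depth, each insulin-led cell was thinned to 2700 UMIs, which left out 26 of 375 control cells and 68 of 577 PPTx cells that were shallower. The share of cells with a Dnajb9 UMI was 34.9%, 26.7%, 39.3% and 35.1% in the control samples and 48.0%, 57.3%, 44.1% and 56.4% in the PPTx samples. These shares did not overlap, and the means of 34.0% ± 5.29 and 51.4% ± 6.43 (SD, n = 4 each) gave an exact two-sided permutation p of 0.0286, the smallest that 4 against 4 samples allow. Of all genes, 4.0% had every PPTx sample above every control sample on this measure and 1.22% had every one below. The p is not adjusted for the 10 members tested, and without thinning the shares of 56.4% ± 19.6 and 73.6% ± 8.02 overlapped (exact permutation p = 0.229).

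No other member reached that value. The mean shares in control and PPTx samples were 12.8% and 18.8% for Edem1 (exact permutation p = 0.0571). They were 19.6% and 29.99% for Edem2, 5.48% and 10.2% for Derl3, 31.8% and 38.4% for Os9, and 18.6% and 24.2% for Derl2 (exact permutation p = 0.0857 for each of the 4). Syvn1, Derl1, Herpud1 and Sel1l had exact permutation p between 0.229 and 0.857. At this depth the cells of a sample held on average 2.32 to 2.59 UMIs of the 10 members in control and 3.24 to 4.23 in PPTx samples. Cells without any member UMI made up 7.02% to 14.7% of a control and 1.82% to 5.88% of a PPTx sample. Cells with UMIs of at least 3 members made up 39.5%, 28.0%, 32.5% and 36.8% of the control samples and 48.98%, 65.3%, 43.1% and 50.0% of the PPTx samples. PPTx replicate 2 stood above the other PPTx samples, and it held 199 of the 509 PPTx cells. These values describe the cells and carry no test.

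**Figure D3:**
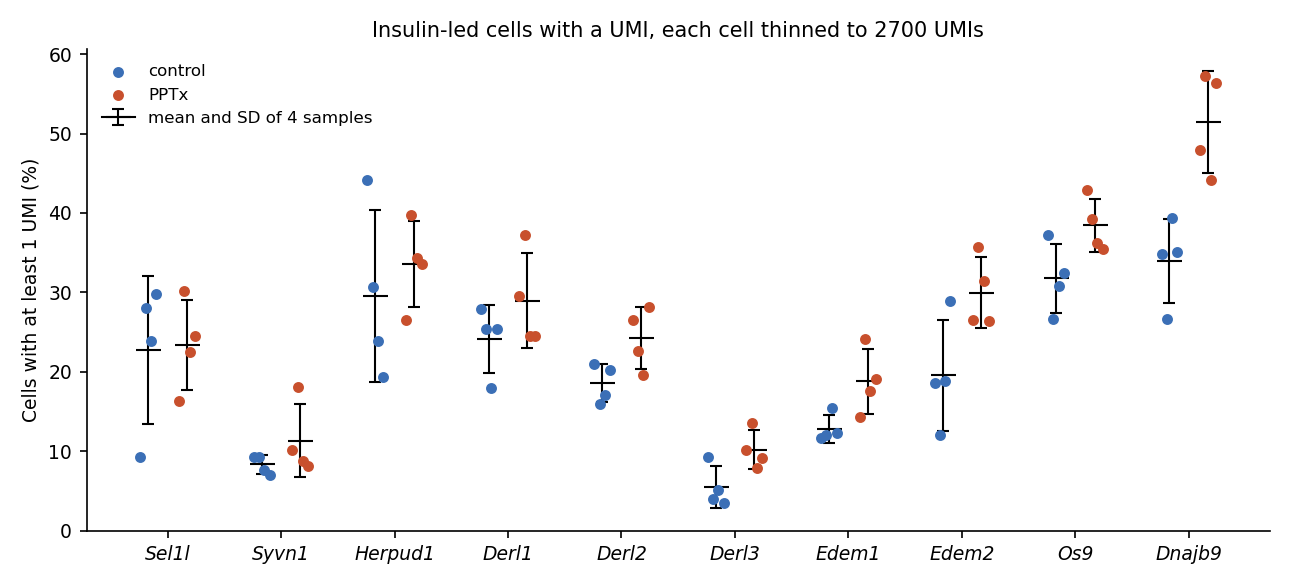
Share of insulin-led cells with at least 1 UMI of each member after every cell was thinned to 2700 UMIs, by sample, with group means. For Dnajb9 the PPTx samples lie between 44.1% and 57.3% and the control samples between 26.7% and 39.3%.

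Further genes of the pathway were read from a list of 40 (cofactors of retrotranslocation, ER chaperones and BiP cofactors), of which 36 were tested in insulin-led cells. Of these, 2 were called higher after PPTx and 0 lower, with a list median log2 fold change of 0.16. Sdf2l1, a BiP cofactor that keeps unfolded proteins soluble, was at 96.8, 106, 169 and 161 CPM in control samples and 342, 391, 289 and 234 CPM after PPTx, without overlap (log2 fold change 1.05, SE 0.19, edgeR adjusted p = 0.0136). Creld2, an ER protein released under ER stress, was at 61.2, 117, 148 and 121 CPM in control samples and 206, 336, 255 and 267 CPM after PPTx, also without overlap (1.04, SE 0.20, adjusted p = 0.0211). Neither call held without control replicate 1, without control replicate 2 or without PPTx replicate 1, and that of Creld2 was also lost without control replicate 4. Over the alternatives the log2 fold change ran from 0.95 to 1.23 for Sdf2l1 and from 0.90 to 1.24 for Creld2, and the highest adjusted p of either was 0.0995.

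Hspa5, which encodes the central ER chaperone BiP, was at 576, 640, 785 and 841 CPM in control samples and 1024, 1356, 1206 and 1247 CPM after PPTx. The groups were separate, with a log2 fold change of 0.65 (SE 0.16, edgeR adjusted p = 0.0878), which passed in 3 of 18 alternatives. The regulators gave 0 calls of 7 tested: Xbp1 had a log2 fold change of −0.07 (SE 0.16) and Atf6 one of 0.11 (SE 0.21), whereas Ern1, the gene of IRE1, had 1 UMI in control and 8 in PPTx insulin-led cells and was not tested.

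Genes sharing the promoter elements were counted from sequence alone. Of the 4610 genes tested in insulin-led cells that had a promoter in the table, 11 held an ERSE (Calr, Canx, Creld2, Derl3, Dnajc3, Hnrnpa3, Hsp90b1, Hspa5, Pdia6, Syvn1 and Xlr3a). Of these, 10 had a positive log2 fold change, 2 were called higher (Pdia6 and Creld2), and the median was 0.62, beside −0.01 over all genes tested. Of all 5904 genes tested, 0.169% were called higher. The 7 genes with an ERSE-II, Herpud1 among them, had 5 positive values, 0 calls and a median of 0.29. The 74 genes with a UPRE had 44 positive values, 0 calls and a median of 0.07. Derl3, Syvn1, Herpud1, Creld2 and Hspa5 are counted here again with the values reported above. These counts describe the genes and were not tested against other genes, and a part of the elements in the changes was not tested.

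The second comparison asked how the members differ between hormone-defined cell classes. In Gcg-led cells (6 samples with at least 5 such cells) 7 of the 9 members tested were called lower and 0 higher, where 15.2% of all 4192 genes were called lower and 8.68% higher. In Ppy-led cells (7 samples) 9 of 10 members were called lower, where 15.6% of 5195 genes were lower and 8.28% higher. Edem1 in both comparisons and Derl3 in the Ppy-led one passed the filter on low counts only through their insulin-led sums, so that the filter favoured a lower value for them. Of the other members tested, 6 of 8 were called lower in Gcg-led and 7 of 8 in Ppy-led cells, with median log2 differences of −1.57 and −1.15, and those of all genes were −0.05 and −0.09. Differences here are on the scale set by TMM, edgeR's normalisation. On plain totals the median of all genes moved to 0.55 in the Gcg-led comparison, the calls turned from 364 higher and 636 lower to 1116 higher and 273 lower, and the members called lower numbered 6. In the Ppy-led comparison the plain totals gave a median of 0.11, 656 genes higher, 553 lower and 8 members lower.

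The classes mixed the groups differently, with 80.1% of Gcg-led, 28.4% of Ppy-led and 44.1% of insulin-led UMIs from control samples. A member's level in a class is therefore given below as a percentage of the UMIs expected had each sample's cells of that class held it at the level of that sample's insulin-led cells, a calculation added after seeing the data. Its 95% interval is exact for the UMIs of the class and leaves out the counting error of the insulin-led cells. The percentages rest on plain totals and the log2 differences beside them on the TMM scale, so they do not convert into each other.

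Derl3 was seen mostly in insulin-led cells. It had 204 UMIs there (32.0 CPM), 0 UMIs among the 482807 UMIs of 113 Gcg-led cells and 2 among the 730372 of 129 Ppy-led cells. At the insulin-led levels of the same samples 11.7 UMIs were expected in Gcg-led cells. A floor of 3 counts over the class gave a limit of 25.6% of the expected level, or 3.9-fold lower. The exact 95% upper bound for 0 UMIs was higher, at 31.5%, so these counts also allow a difference smaller than 3.9-fold. Control replicate 3 held 240143 of the Gcg-led UMIs, so the limit rests in large part on that sample, and it was not recomputed without it. In Ppy-led cells the Derl3 level was 7.74% of the insulin-led one (95% interval 0.938% to 28.0%). In most single samples the other classes held too few UMIs to show a difference in Derl3, and no test over samples is given. Thinned to 2700 UMIs, 8.39% of 858 insulin-led cells, 0 of 92 Gcg-led cells and 0.901% of 111 Ppy-led cells had a Derl3 UMI, over all samples together. A cell without a UMI at this depth can still hold the transcript, so these shares set no limit on the cells that express Derl3.

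Edem1 followed with 454 UMIs (71.2 CPM) in insulin-led cells, 4 in Gcg-led and 10 in Ppy-led cells. Its level in Gcg-led cells was 13.7% of the insulin-led one (95% interval 3.72% to 34.96%) and in Ppy-led cells 17.7% (8.49% to 32.6%). Edem2, its relative, was at 55.0% and 57.9% of the insulin-led level (log2 differences −1.37, SE 0.33, and −0.92, SE 0.23).

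Genes of the channel and the ligase followed. Sel1l stood at 45.6% of the insulin-led level in Gcg-led cells and 32.4% in Ppy-led cells (log2 differences −1.87, SE 0.39, and −1.80, SE 0.33), Derl1 at 40.3% and 42.1% (−1.76, SE 0.38, and −1.38, SE 0.27), and Derl2 at 43.3% and 32.0% (−1.83, SE 0.42, and −1.84, SE 0.35). All 6 of these values passed the test, and passed it under every alternative run. Syvn1 was called in Ppy-led cells (43.5%, −1.38, SE 0.43, edgeR adjusted p = 0.00211) and not in Gcg-led cells (89.8%, −0.56, SE 0.45, adjusted p = 0.398), and its Gcg-led value was 0.03 on plain totals. With cells thinned to 2700 UMIs the Ppy-led calls of Syvn1 (log2 difference −0.57) and Edem2 (−0.71) were lost.

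Dnajb9 was at 131, 0, 121 and 116 CPM in the Gcg-led cells of control samples and at 118 and 47.6 CPM in those of the PPTx samples 2 and 3. Each value lay below that of the insulin-led cells of the same sample, but they rest on 2, 0, 29, 11, 4 and 2 UMIs. In control replicate 1 a floor of 3 counts was 197 CPM, above the insulin-led level of 153 CPM, so a difference was not detectable there. Over all samples the level was 43.3% of the insulin-led one (95% interval 32.3% to 57.0%, log2 difference −1.88, SE 0.29, edgeR adjusted p = 2.0e-11). In Ppy-led cells it was at 236, 122 and 227 CPM in control samples 2 to 4 and at 149, 203, 110 and 288 CPM after PPTx. Its level there was 60.8% of the insulin-led one (log2 difference −0.81, SE 0.17, adjusted p = 2.2e-05), and was lower in 5 of 7 samples.

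Os9 stood at 98.7% of the insulin-led level in Gcg-led cells (95% interval 77.1% to 125%) and at 88.5% in Ppy-led cells (72.9% to 106%), and was not called in either (log2 differences −0.50, SE 0.25, edgeR adjusted p = 0.121, and −0.39, SE 0.18, adjusted p = 0.101). Its Gcg-led value turned to 0.10 on plain totals, and its Ppy-led value was called under 1 alternative, the filter of 10 UMIs (−0.56). Herpud1 stood at 82.0% and 71.6% of the insulin-led level and was called in both (−0.95, SE 0.28, adjusted p = 0.00259, and −0.59, SE 0.20, adjusted p = 0.0175). That call was lost in Gcg-led cells under 3 alternatives and in Ppy-led cells under 9, among them each removal of a PPTx sample. Gcg-led and Ppy-led cells were not compared with each other.

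**Figure D4:**
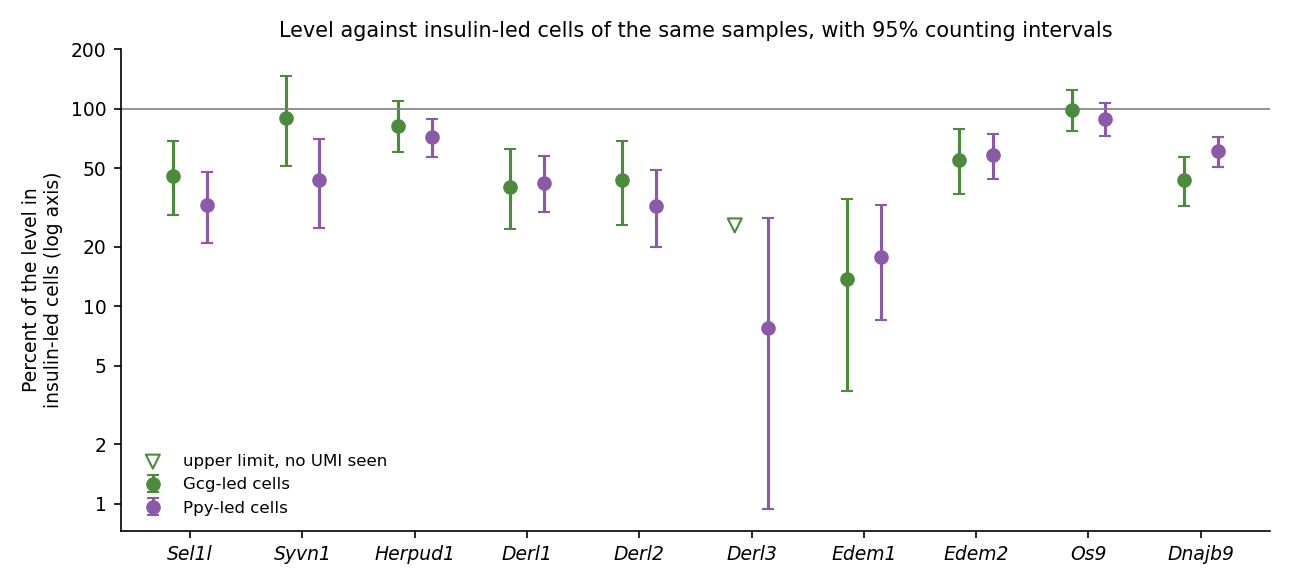
Level of each member in Gcg-led and Ppy-led cells as a percentage of its level in the insulin-led cells of the same samples, on a log axis with 95% exact counting intervals. The percentages are from plain totals. The open triangle is the limit of 25.6% that a floor of 3 counts gives for Derl3 in Gcg-led cells, where no UMI was seen, and lies below the exact 95% upper bound of 31.5%, which is not drawn. Derl3 (7.74% in Ppy-led cells) and Edem1 (13.7% and 17.7%) lie lowest, and the intervals of Os9 in both classes and of Syvn1 and Herpud1 in Gcg-led cells include 100%.

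The 12 Sst-led cells allowed values only. They held 7 UMIs of Dnajb9, 6 of Herpud1, 5 of Derl1, 3 each of Edem2 and Os9, 1 each of Sel1l and Derl2, and 0 of Syvn1, Derl3 and Edem1. The upper limit for Derl3 there, 76.6 CPM from a floor of 3 counts, lies above its insulin-led level, so a difference was not detectable at this depth.

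Of the wider list, 16 of 33 genes were called lower in Gcg-led cells and 12 of 36 in Ppy-led cells, with 0 higher in either. Of all genes tested, 15.2% and 15.6% were called lower. On plain totals both counts of the list were 8, where 273 of all 4192 and 553 of all 5195 genes were lower. Sdf2l1 had log2 differences of −2.46 (SE 0.36) and −2.88 (SE 0.29), Creld2 of −1.99 (SE 0.34) and −2.29 (SE 0.27), and Hspa5 of −1.26 (SE 0.20) and −1.19 (SE 0.15). The co-chaperones Dnajc3 (−1.76 and −1.51) and Dnajb11 (−1.50 and −2.67) and the glucosyltransferase Uggt1 (−2.39 and −1.66), which tests glycoproteins for folding, were lower in both. Of the regulators, 4 of 6 were called lower in Gcg-led cells and 0 on plain totals. In Ppy-led cells 2 of 6 were called lower and 1 on plain totals. Atf6 was called lower in both classes (−1.55, SE 0.46, and −1.06, SE 0.34), but in Gcg-led cells the call was lost on plain totals (−0.96, edgeR adjusted p = 0.0646) and in both classes with thinned cells (adjusted p = 0.0801 and 0.0822). Xbp1 was called in Gcg-led cells (−0.69, SE 0.22, edgeR adjusted p = 0.00883), where its level was 106.5% of the insulin-led one and the call was absent on plain totals, and not in Ppy-led cells (−0.25, SE 0.16, adjusted p = 0.276). Immediate early genes, which respond to dissociation, summed to 725 to 2622 CPM in Gcg-led cells and 579 to 3171 CPM in Ppy-led cells, against 120 to 593 CPM in insulin-led cells, with 9 of 9 detected in each. Their part in the class differences was not tested.

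Whether PPTx went with other member levels outside insulin-led cells could be tested only in part, because PPTx samples held 1 to 7 Gcg-led cells each. In Ppy-led cells (3 control and 4 PPTx sums) 3 members passed the filter on low counts. Of these, 0 were called by edgeR and 0 by DESeq2, where edgeR called 0.156% of 640 genes. At an unadjusted p under 0.05 edgeR counted 0 of these members and 38 of the 640 genes. The members' log2 fold changes were −0.42 (SE 0.43) for Herpud1, 0.02 (SE 0.36) for Os9 and −0.26 (SE 0.34) for Dnajb9. Of the 7 members left out by the filter, Sel1l had means of 18.1 ± 16.2 CPM (SD, n = 3) in control and 41.3 ± 6.56 CPM (n = 4) in PPTx samples, with an exact permutation p of 0.0571, the smallest this design allows. The other 6 had exact permutation p from 0.114 to 1. With Gcg-led, Ppy-led and Sst-led cells summed together, 4 members were tested and 0 called by edgeR or by DESeq2. Of 1426 genes, edgeR called 0.771% (0.140% higher and 0.631% lower). At an unadjusted p under 0.05 it counted 0 of the 4 members and 138 of the 1426 genes. The members' log2 fold changes ran from −0.17 (SE 0.32) for Herpud1 to 0.41 (SE 0.27) for Os9. The mix of classes in those sums differed between groups, with 95 Gcg-led and 31 Ppy-led control cells and 18 and 98 PPTx cells.

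The difference of the PPTx effect between insulin-led and all other classed cells was tested as an interaction, in which 0 of 10 members and 0.187% of 4804 genes were called (0.125% higher and 0.0624% lower), and 336 genes had an unadjusted p under 0.05. The lowest member p was that of Herpud1 (log2 difference 0.68, SE 0.33, edgeR unadjusted p = 0.0422, adjusted p = 0.68). DESeq2 called 0 members as well. Only 4 of the members had passed the filter on low counts in the summed other classes alone. In those classes Derl3 had 0 control and 2 PPTx UMIs, and its interaction estimate had no finite SE. Edem1 had 7 and 7 UMIs there, so the interaction says little about either gene. The values above thus do not show that the members responded differently in insulin-led and other cells, or that they responded alike, since the 95% interval in the summed classes (−0.31 to 0.87 for Dnajb9, −0.78 to 0.78 for Edem2) held both 0 and the insulin-led estimate.

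The study centred on replicating beta cells, and the third comparison set insulin-led cells with at least 2 UMIs of 10 cell-cycle genes (41 cells, here called cycling) against the 885 with none. Sums of at least 3 cycling cells came from 6 samples: control replicates 3 and 4 and all 4 PPTx samples, with 3 to 15 cells each. Of the members, 2 were called lower in cycling cells, Dnajb9 and Herpud1, and 0 higher, where 6.42% of 5045 genes were called, 3.27% lower and 3.15% higher. The all-gene median was −0.25 on this scale, −0.01 under DESeq2 (223 higher, 28 lower) and 0.21 on plain totals (282 higher, 29 lower), so that a member's difference is best read against that median.

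Dnajb9 was at 109 and 173 CPM in the cycling cells of control replicates 3 and 4 and at 174, 338, 200 and 174 CPM in those of the PPTx samples. In the other insulin-led cells of these samples it was at 241, 231, 291, 433, 286 and 291 CPM. It was lower in cycling cells in 6 of 6 samples, with a log2 difference of −1.08 (SE 0.30, edgeR adjusted p = 0.00566). The call was lost without control replicate 3, where the difference was −0.98 (adjusted p = 0.0531), and on plain totals, where it was −0.59. Over the alternatives its adjusted p ran from 0.00109 to 0.131. Herpud1 had a log2 difference of −1.03 (SE 0.36, edgeR adjusted p = 0.0399) but was lower in CPM in only 3 of 6 samples, and its call was lost under 7 of 12 alternatives.

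Derl3 went the other way. Cycling cells held it at 109, 43.2, 57.9, 125, 70.5 and 87.2 CPM and other insulin-led cells of the same samples at 19.3, 16.7, 36.7, 42.1, 31.9 and 44.9 CPM. The cycling value was the higher in 6 of 6 samples, from 1 to 10 UMIs each. The log2 difference of 0.95 (SE 0.43, edgeR adjusted p = 0.201) passed on plain totals (1.42, adjusted p = 0.0247), a setting added after the data were seen. The remaining 7 members had log2 differences between −0.63 for Sel1l and −0.26 for Edem1, none of them called, and 5 of them (Syvn1, Derl1, Derl2, Edem1 and Os9) turned positive on plain totals. Of the wider list, 3 of 35 genes were lower (Sdf2l1 −1.07, Hspa5 −0.81 and Selk −0.80) and 0 higher. None of the 3 was called by DESeq2 or on plain totals, and of 12 alternatives Sdf2l1 was called in 10, Hspa5 in 6 and Selk in 3. Xbp1 was lower too (−1.02, SE 0.30, edgeR adjusted p = 0.0129), 1 of 6 regulators tested, and was not called by DESeq2 or on plain totals.

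**Figure D5:**
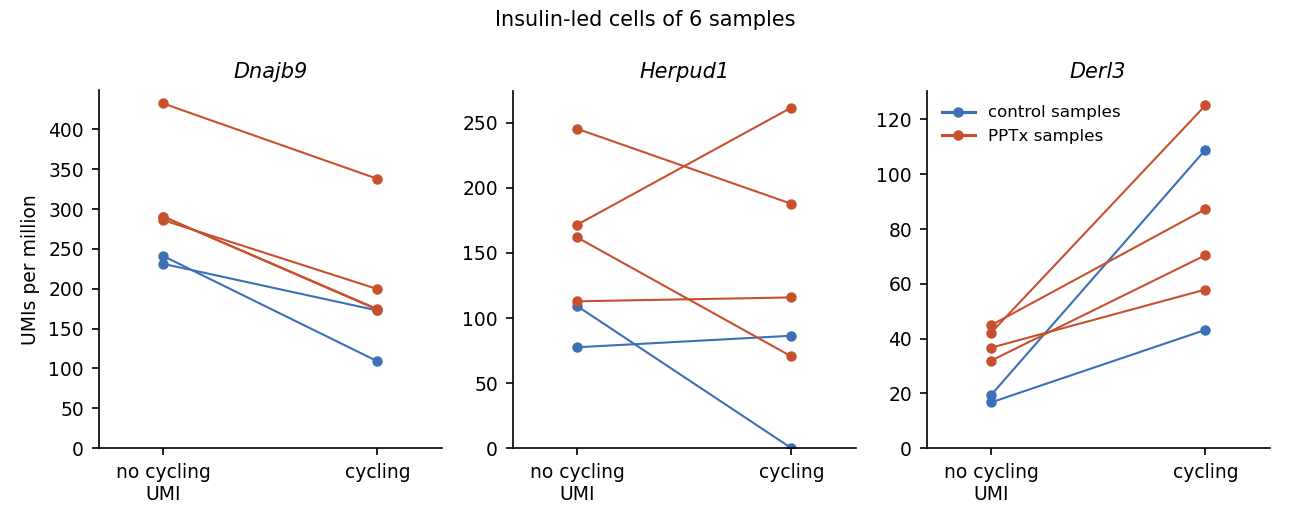
Level of Dnajb9, Herpud1 and Derl3 in cycling and other insulin-led cells of the same sample, in CPM, for the 6 samples with at least 3 cycling cells. Lines join the values of a sample. In cycling cells Dnajb9 is lower in all 6, Herpud1 in 3 and Derl3 is higher in all 6.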

How the data were processed

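The deposited files held UMI counts per gene and cell, made by the authors with bcl2fastq and Cell Ranger on mm10 and not normalised. The labels name a Chromium 3′ kit and the methods a SureCell 3′ kit, and any selection of cells ahead of deposit is not given in the sources used here. The limits of the study were applied, namely 100 to 3000 genes and 100 to 20000 UMIs per cell. In all, 1 barcode occurred in more than 1 sample, and no mitochondrial genes were listed.

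Counts were summed per sample and class (at least 5 cells, or 3 cycling cells) and tested with edgeR 4.0.16 (R 4.3.3, filterByExpr, TMM, quasi-likelihood, Benjamini-Hochberg adjusted p under 0.05 over all genes tested). Class and cycling comparisons had the sample as a block. Untested members and thinned shares were compared by exact two-sided permutation tests in scipy 1.17.1. CPM is UMIs per 1000000 of the sum. Intervals are 95% exact and, like the floor of 3 counts, cover counting error only. Scripts were tested on simulated data. The labels do not say which samples came from separate mice, so p-values measure the spread between these samples.

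Alternatives were DESeq2 1.42.0, a filter of 10 UMIs, totals without hormone genes, a replicate block, class shares of 90% and 50%, thinned cells, all kept cells, other cycling rules, and each sample left out. Plain totals without TMM, thinned cycling cells and class levels against the insulin-led cells of the same samples were added after seeing the data. The text names all 10 members, and of a list of 40 further pathway genes and 9 regulators up to 6 called genes per direction with the lowest adjusted p, besides Hspa5, Xbp1, Atf6 and Ern1. Members and lists were chosen with earlier results of these data known.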

Additional observations from a re-analysis of the deposited data

Results flagged for a closer look

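Of 30 groups of 4 samples looked at for a sample far from the others, 3 held one. Chance gives about 1 in 20 for continuous values, a rate that does not hold for groups with counts near 0, such as that of Derl3. Dnajb9 stood at 424.6 CPM in the insulin-led cells of PPTx replicate 2, and at 272 to 288 CPM in the other 3 PPTx samples. Derl1 stood at 29.8 CPM in the Ppy-led cells of PPTx replicate 1, from 4 UMIs, and at 58.7 to 61.8 CPM in the others. Derl3 stood at 9.03 CPM in the Ppy-led cells of PPTx replicate 2, from 2 UMIs, and at 0 in the others.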

How the results depend on the processing

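In insulin-led cells no alternative called any member after PPTx, and 174 of the 178 values recomputed for single members kept their direction and side of the threshold. The members called lower in Gcg-led cells numbered 6 to 8 under the alternatives, with Edem1 in each count, and reached 8 only where Derl3, with 0 UMIs in Gcg-led cells, passed the filter. In Ppy-led cells they numbered 5 with thinned cells and 8 to 10 under the other alternatives, and reached 10 only with the filter of 10 UMIs, which added Os9. In cycling cells 1 member was called under DESeq2, 1 on plain totals (Derl3, higher), 1 with thinned cells, and 0 to 2 with a sample left out. Shares of cells with a UMI gave 0 members at p under 0.05 without thinning, and 1 with it. The cause of these shifts was not tested.

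All values that changed sign lay among results that were not called. After PPTx in insulin-led cells, Sel1l turned to 0.042 on plain totals and 0.029 over all kept cells, and ranged from −0.18 to 0.0062 with a sample left out, as Derl2 did from −0.0095 to 0.18. In Ppy-led cells Os9 was −0.30 with a replicate block and −0.11 at a hormone share of 90%, and −0.17 to 0.21 with a sample left out. In Gcg-, Ppy- and Sst-led cells together Edem2 was 0.0075 without hormone genes and 0.052 at a share of 50%, and −0.22 to 0.25 with a sample left out, and Herpud1 ranged from −0.38 to 0.018. Against insulin-led cells, on plain totals, Syvn1 was 0.025 and Os9 0.10 in Gcg-led cells. In the interaction, Os9 was 0.11 on plain totals and Derl1 −0.052 at a share of 50%, and with a sample left out Syvn1 ranged from −0.20 to 0.35, Derl1 from −0.32 to 0.34, Derl2 from −0.13 to 0.55 and Edem1 from −0.49 to 2.12. In cycling cells on plain totals Syvn1 was 0.012, Derl1 0.030, Derl2 0.022, Edem1 0.21 and Os9 0.029, and Edem1 ranged from −0.81 to 0.025 with a sample left out.

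After PPTx in insulin-led cells, the 17 genes called became 28 on plain totals (24 higher, 4 lower, all-gene median 0.13), 25 with DESeq2 (19 and 6), 32 over all kept cells, 11 without cycling UMIs, 1 without control replicate 1, 2 without control replicate 2, 1 without PPTx replicate 1 and 45 with the replicate block. Under the block no member was called, with a lowest member adjusted p of 0.130 in edgeR. Samples of the same number correlated in their deviations by 0.048, 0.037, 0.096 and 0.143, and control replicate 2 correlated best with PPTx replicate 3 (0.062), so the numbers were not taken to pair the samples. The interaction called 90 genes on plain totals (88 higher, 2 lower, all-gene median 0.31), Hspa5 among them, and 1 with DESeq2. Each member had 0 to 31 UMIs per sample in Gcg-led cells, and depth limits what can be seen there.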
